A study of Mus musculus with 6 samples.

Results

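Kruppel-like factors are transcription factors that bind GC-rich and CACCC-type DNA through zinc fingers at their C-terminal end, and their differing N-terminal parts recruit co-activators or co-repressors. In the heart and its vessels, KLF2 and KLF4 are known as flow-responsive regulators of endothelial cells, and KLF15 as a regulator of fuel use and growth in heart muscle. KLF9, KLF13 and KLF15 are also known as targets of the glucocorticoid receptor, and KLF10 and KLF11 as early targets of TGF beta. The 10 genes described here (Klf2, Klf3, Klf4, Klf5, Klf6, Klf9, Klf10, Klf11, Klf13 and Klf15) were chosen by name, as probe sets whose only annotated symbol is a listed family member. They are 10 of the 19938 genes with a probe set of their own, and each was read by 1 probe set, of 23410 tested and 35557 in the table.

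The samples were 6 whole hearts of mice aged 8 weeks on the C57BL/6 strain, each on its own Affymetrix Gene 1.0 ST array. There were 3 hearts of Ppif-/- mice, a global knockout of the gene for the mitochondrial matrix isomerase cyclophilin D, and 3 hearts of wild-type (WT) mice. Per the labels, the knockout line came from Sv129 and was crossed back to C57BL/6. The sources used here give neither the number of backcrosses nor the sex, the litters or the hour of collection, so genotype and any Sv129 sequence that remains cannot be told apart. The series gives its question as which transcripts differ before the heart muscle begins to fail.

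All values are log2 expression, 1 unit being a 2-fold change, and all differences are Ppif-/- minus WT with the standard error of the limma fit. A transcript is called changed at a Benjamini-Hochberg adjusted p under 0.05 over all 23410 probe sets. Ppif lay at 6.00 to 6.44 in the hearts labelled Ppif-/- and at 11.28 to 11.49 in WT hearts, as the labels require. The 10 cardiomyocyte markers averaged 13.42 in each Ppif-/- heart and 13.40 to 13.43 in WT hearts, against array medians of 6.03 to 6.11. In whole hearts, fewer cells of a type and less RNA per cell cannot be told apart. With 6 arrays, their number sets how precise each value can be.

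Klf2 was the 1 gene of the 10 that was called changed, and it rose 1.64-fold in Ppif-/- hearts. Over all probe sets tested, 1.09% were called in either direction and 0.624% were called higher. Klf6 had the next largest difference, 1.41-fold in the same direction, and was not called. Of the 10 genes, 5 had a higher mean in Ppif-/- hearts and 5 a lower mean, with a median difference of 0.03, beside 0.00 over all probe sets tested. Klf2, Klf4, Klf6 and Klf9 had every Ppif-/- heart above every WT heart, which 9.21% of all probe sets also showed. None of the 10 had every Ppif-/- heart below every WT heart, which 10.6% of all probe sets showed.

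**Figure D1:**
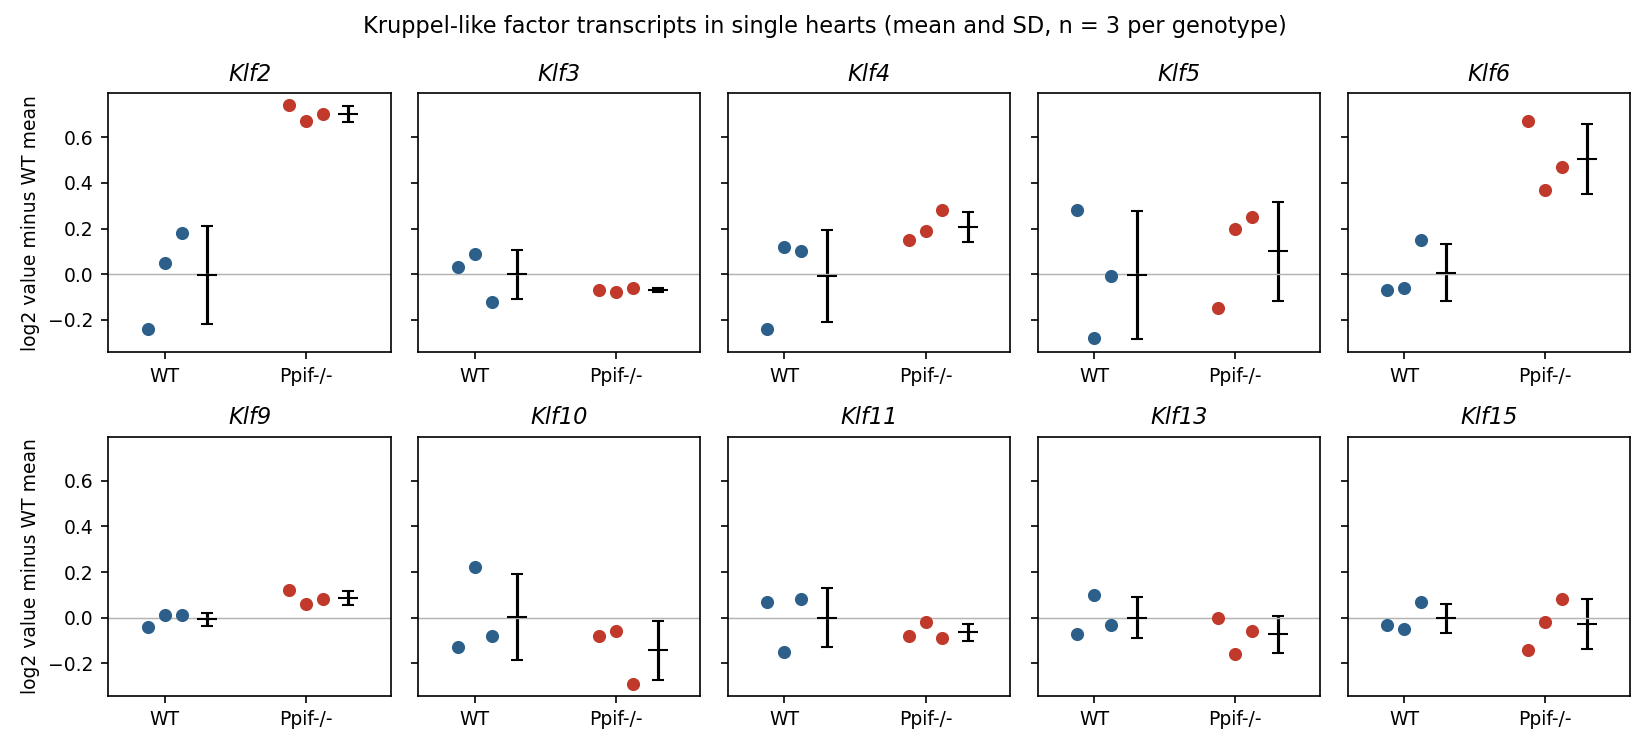
Log2 value of each of the 10 Klf transcripts in single hearts, set against that gene's WT mean (vertical axis, log2), for 3 WT hearts (blue) and 3 Ppif-/- hearts (red), with the mean and SD of each group in black. The genotypes are 0.49 apart for Klf2, 0.22 for Klf6, 0.04 for Klf9 and 0.02 for Klf4, and they overlap for the other 6 genes.

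Klf2 encodes a factor that keeps endothelial cells quiescent under laminar flow and also controls T cell trafficking. Klf2 lay at 9.34, 9.27 and 9.30 in Ppif-/- hearts 1, 2 and 3, and at 8.36, 8.65 and 8.78 in WT hearts 1, 2 and 3. The lowest Ppif-/- heart stood 0.49 above the highest WT heart, and the WT hearts were spread more widely (SD 0.21) than the Ppif-/- hearts (SD 0.04). The difference was 0.71 ± 0.11 (SE, n = 3 per genotype; 95% interval 0.46 to 0.96), with a limma adjusted p of 0.0261. The call of Klf2 was lost without Ppif-/- heart 1, 2 or 3 (limma adjusted p = 0.085, 0.0884 and 0.11) or WT heart 2 (0.0734), and when the probe sets without a gene symbol were tested too (0.0986, where 0.368% of probe sets were called), with differences of 0.69 to 0.74 in these fits.

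Klf6 encodes a widely expressed factor that is induced by injury in vessels and other tissues. Klf6 lay at 9.88, 9.58 and 9.68 in Ppif-/- hearts and at 9.14, 9.15 and 9.36 in WT hearts, so the groups stood 0.22 apart. Its difference of 0.50 ± 0.10 (95% interval 0.26 to 0.74) had an unadjusted limma p of 0.00125 and an adjusted p of 0.0759. Klf6 was called when the dimmer probe sets were left out (limma adjusted p = 0.0439, with 2.99% of probe sets called) and with a variance trend (0.031, with 1.94% called).

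Klf4 is the close relative of Klf2 that shares its endothelial role and also represses the contractile genes of smooth muscle. Klf4 lay at 8.40, 8.44 and 8.53 in Ppif-/- hearts and at 8.01, 8.37 and 8.35 in WT hearts. The highest WT heart came within 0.02 of the lowest Ppif-/- heart, and WT heart 1 stood below the others. The difference of 0.21 ± 0.11 was not called (limma adjusted p = 0.464), with a 95% interval of -0.04 to 0.46. Without WT heart 1 it was 0.09 (limma adjusted p = 0.734).

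The differences of these 3 genes were set against each other within each heart, a comparison chosen after their values were seen. The log2 value of Klf2 minus that of Klf4 was 0.78 to 0.95 in Ppif-/- hearts and 0.27 to 0.42 in WT hearts. The difference of Klf2 exceeded that of Klf4 by 0.50, with no overlap between the groups (exact permutation test, 2-sided, p = 0.1). That of Klf6 exceeded that of Klf4 by 0.29 (exact permutation p = 0.1), and that of Klf2 exceeded that of Klf6 by 0.21 with overlapping hearts (exact permutation p = 0.2). Adjusted over the 3 pairs these exact p-values were 0.15, 0.15 and 0.2, and with 3 hearts per group the test cannot go below 0.1. Without WT heart 1, Klf2 exceeded Klf4 by 0.50, Klf6 exceeded Klf4 by 0.37 and Klf2 exceeded Klf6 by 0.13.

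The promoters of Klf2, Klf6, Klf4 and Klf15 are printed because the first 3 are the stimulus-responsive members with the highest differences and Klf15 is the metabolic member whose difference was nearest to 0. Each run is the 250 bases before the start of the RefSeq gene model, 5′ to 3′ on the gene's strand, in GRCm38.p6. They lie at chr8:72318812-72319061 on the plus strand (Klf2), chr13:5861239-5861488 on the plus strand (Klf6), chr4:55532476-55532725 on the minus strand (Klf4) and chr6:90462326-90462575 on the plus strand (Klf15). Capitals mark, on either strand, the GC box GGGCGG, the E-box CACGTG that the clock factors CLOCK and BMAL1 bind, the core TGACG of the cAMP response element, the AP-1 site TGANTCA and the MEF2 site.
Klf2: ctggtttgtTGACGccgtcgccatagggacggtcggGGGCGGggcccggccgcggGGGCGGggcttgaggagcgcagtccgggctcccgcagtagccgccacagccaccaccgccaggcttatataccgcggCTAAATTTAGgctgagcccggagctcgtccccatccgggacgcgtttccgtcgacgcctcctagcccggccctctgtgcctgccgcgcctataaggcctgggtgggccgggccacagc
Klf6: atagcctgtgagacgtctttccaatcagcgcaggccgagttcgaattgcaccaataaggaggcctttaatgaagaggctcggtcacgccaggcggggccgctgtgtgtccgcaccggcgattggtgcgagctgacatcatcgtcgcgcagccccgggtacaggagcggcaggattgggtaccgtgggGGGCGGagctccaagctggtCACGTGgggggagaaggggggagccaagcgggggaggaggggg
Klf4: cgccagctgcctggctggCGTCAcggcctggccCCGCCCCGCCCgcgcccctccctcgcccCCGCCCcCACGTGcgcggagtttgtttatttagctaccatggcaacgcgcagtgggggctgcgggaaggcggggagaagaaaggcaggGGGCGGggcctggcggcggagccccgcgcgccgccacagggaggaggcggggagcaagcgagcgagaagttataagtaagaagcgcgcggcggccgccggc
Klf15: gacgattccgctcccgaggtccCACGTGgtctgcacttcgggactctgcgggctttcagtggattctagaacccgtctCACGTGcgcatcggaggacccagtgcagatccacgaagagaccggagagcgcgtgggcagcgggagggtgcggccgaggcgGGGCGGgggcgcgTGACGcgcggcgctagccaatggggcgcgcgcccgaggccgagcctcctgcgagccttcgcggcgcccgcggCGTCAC

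The Klf2 run holds a MEF2 site that begins at position -118, counted from the gene start. MEF2 proteins are the known mediators of flow-induced Klf2 expression. Windows of 300 bases, from 250 before to 50 after the start, were searched for 8 of the 10 members, and the MEF2 site was found in 1 of these 8 windows, that of Klf2. Over 32851 promoter windows of the mouse genome, 3.19% held it, and 0.588% of the 9690 windows with at least 60% G and C. The E-box stood in 4 of the 8 windows (Klf4, Klf6, Klf11 and Klf15), beside 7.15% of all windows and 10.8% of the GC-rich ones. Klf15 held 3 E-boxes, the last of which spans the gene start and is cut off in the printed run, and Klf6 held 1, at position -43. The 4 members with an E-box differed between the genotypes by 0.50 (Klf6), 0.21 (Klf4), -0.06 (Klf11) and -0.02 (Klf15), and none of these was called in limma.

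The GC box, the kind of site that this family itself binds, was found in 7 of the 8 windows, beside 35.7% of all windows and 80.6% of the GC-rich ones. The CACCC box, searched as CACCC, was found in 5 of the 8, beside 57.5% of all windows and 70.1% of the GC-rich ones. The core TGACG was found in 6 of the 8 (20.8% and 31.6%), and the AP-1 site in 1, that of Klf9 (7.81% and 3.35%). The full cAMP response element TGACGTCA, the glucocorticoid response motif AGAACA, the CArG box and the D-box TTATGTAA, searched likewise on both strands, were found in 0 of the 8, beside 1.79%, 19%, 1.63% and 0.938% of all windows and 3.03%, 7.34%, 1.07% and 0.237% of the GC-rich ones. A match of letters is a description of the window and does not show that a factor binds there.

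Among the members known as glucocorticoid targets, Klf9 is also an output gene of the circadian clock. Klf9 lay at 10.34, 10.28 and 10.30 in Ppif-/- hearts and at 10.18, 10.23 and 10.23 in WT hearts. Every Ppif-/- heart was above every WT heart, by 0.04 at the nearest, and the SD was 0.03 in each genotype. The difference of 0.09 ± 0.06 was not called (limma adjusted p = 0.614), with a 95% interval of -0.06 to 0.23.

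Klf15 lay at 8.71, 8.83 and 8.93 in Ppif-/- hearts and at 8.82, 8.80 and 8.92 in WT hearts, so the genotypes overlapped throughout. Its difference was -0.02 ± 0.08 (limma adjusted p = 0.949). The 95% interval of -0.21 to 0.17 bounds the change of Klf15 in either direction and does not reach the difference of Klf2 or Klf6. Klf13, a factor that also works with GATA4 in heart development, ranged from 7.34 to 7.50 in Ppif-/- and from 7.43 to 7.60 in WT hearts. Its difference of -0.07 ± 0.08 was not called (95% interval -0.26 to 0.11).

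The members known as TGF beta targets had lower means in Ppif-/- hearts and were not called. Klf10, a repressor first described as a TGF beta-inducible early gene, ranged from 6.70 to 6.93 in Ppif-/- and from 6.86 to 7.21 in WT hearts. It had the lowest difference of the 10, -0.14 ± 0.11 (95% interval -0.40 to 0.11; limma adjusted p = 0.646), with WT heart 2 above the other 5 hearts. The difference was -0.04 without WT heart 2, -0.07 without Ppif-/- heart 3 and -0.06 with array weights, and in none of these 3 fits was it the lowest of the 10. Klf11, which recruits the SIN3A co-repressor, ranged from 8.28 to 8.35 and from 8.22 to 8.45, a difference of -0.06 ± 0.08.

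The remaining members also overlapped between the genotypes. Klf3, a repressor that works through the co-repressor CtBP, ranged from 8.60 to 8.62 in Ppif-/- hearts and from 8.56 to 8.77 in WT hearts (-0.07 ± 0.07). Klf5, a growth-promoting factor of smooth muscle cells and fibroblasts that is also active in heart muscle cells, ranged from 6.47 to 6.87 and from 6.34 to 6.90. Its difference of 0.10 had the widest interval of the 10, -0.27 to 0.47, and these hearts do not resolve a change within it. The 6 members whose hearts overlapped had differences of -0.14 to 0.10, and their 95% intervals together ran from -0.40 to 0.47. Each of the 6 hearts was the highest of its genotype for 1 to 5 of the 10 genes and the lowest for 1 to 6. WT heart 1 was the lowest for 6, among them Klf2, Klf4, Klf6 and Klf9, the members whose groups did not overlap. Without WT heart 1 their differences were 0.59 (Klf2), 0.09 (Klf4), 0.46 (Klf6) and 0.07 (Klf9).

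**Figure D2:**
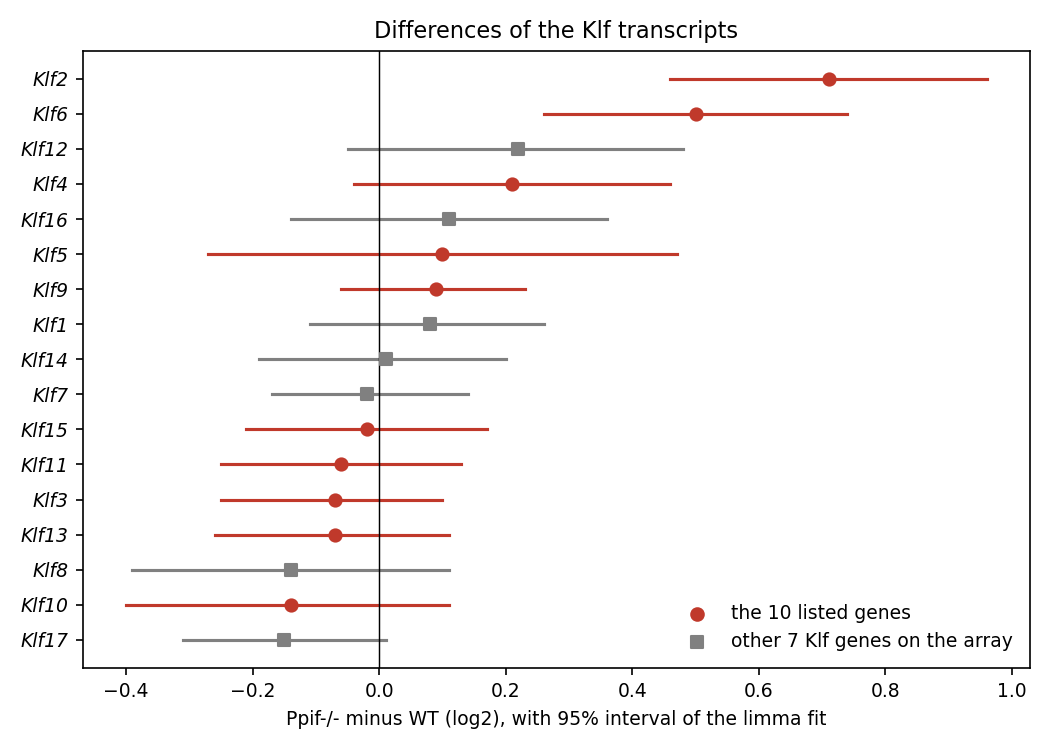
Difference between Ppif-/- and WT hearts (horizontal axis, log2) for the 10 listed genes (red circles) and the other 7 Klf genes with a probe set of their own (grey squares), with the 95% interval of the limma fit (3 hearts per genotype). The intervals of Klf2 (0.46 to 0.96) and Klf6 (0.26 to 0.74) lie above 0, and the other 15 include 0.

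The other family members were measured in the same way. Of the other 7 Klf genes (Klf1, Klf7, Klf8, Klf12, Klf14, Klf16 and Klf17), 0 were called by limma, and at an unadjusted p under 0.05 there were also 0. Their differences ran from -0.15 for Klf17, a factor of early embryos and germ cells, to 0.22 for Klf12, a repressor. Together with the related SP factors, 15 of 17 listed genes were measured, with 0 called, 0 at an unadjusted limma p under 0.05 and a median difference of 0.01. Of 30 cofactors, upstream kinases and degradation factors of the family, limma called 0, with a median of -0.01. At an unadjusted p under 0.05, 2 were higher and 2 lower, beside 13.1% of all measured genes in either direction. The smallest p among the 30 was that of Srf, which encodes serum response factor (-0.30 ± 0.07, limma adjusted p = 0.135). MEF2 genes and the ERK5 gene, which act upstream of Klf2 and Klf4 in endothelial cells and were chosen after their values were seen, differed by 0.16 (Mef2a), 0.01 (Mef2c), -0.12 (Mef2d) and -0.09 (Mapk7) and were not called.

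The genes whose profile over the 6 hearts was nearest to that of Klf2 were found by the root mean square distance between values centred on each gene's mean, over 21772 probe sets with 1 symbol. They were Sik1, Ccdc124 and B3gnt3, at distances of 0.0654, 0.095 and 0.0951 log2 units. Genes chosen this way, here and for Klf6 below, share much of the member's genotype difference by selection. Their differences and calls are thus not separate results. Sik1, a salt-inducible kinase that is itself induced by cAMP signalling, lay at 9.96, 9.84 and 9.88 in Ppif-/- and at 9.12, 9.26 and 9.44 in WT hearts. Its difference of 0.61 ± 0.09 was called (limma adjusted p = 0.0261), though not without Ppif-/- heart 1, 2 or 3 (limma adjusted p = 0.086, 0.0816 and 0.106) or WT heart 1 or 2 (0.0848 and 0.0852). B3gnt3, a glycosyltransferase gene, differed by 0.75 ± 0.07 and Ccdc124 by 0.65 ± 0.07 (limma adjusted p = 0.00321 and 0.00548). Nearest to Klf6 were H2aw, Bcl2 and Rps4l, at distances of 0.0468, 0.049 and 0.0632, which differed by 0.45, 0.46 and 0.42 and were not called. Bcl2 encodes an inhibitor of apoptosis.

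B3gnt3 and Ccdc124 lie on chromosome 8 with Klf2, 15 and 42 measured genes away from it, so the genes around Klf2 were examined after these values were seen. Of the 10 measured genes on each side of Klf2, 8 of 20 had an unadjusted limma p under 0.05, 4 higher and 4 lower, beside 13.1% of all measured genes. Of the 50 on each side, 7 of 100 were called, beside 1.14% of all measured genes and 2.29% of those on chromosome 8. The 4 higher were Ccdc124, Pgls, B3gnt3 and the cytokine gene Il15 (2.46 ± 0.13), and the 3 lower were Ocel1 (-0.81 ± 0.09), Calr3 (-0.75 ± 0.12) and Zfp330 (-0.58 ± 0.06). Ccdc124 and B3gnt3 among these 7 had prompted the look. The width of 50 was also set after the values were seen, so the share called is not a test of the region. Calr3, a testis form of calreticulin, lies 2 measured genes from Klf2 and ran opposite to it, at 7.87, 8.03 and 8.01 in Ppif-/- and at 8.58, 8.99 and 8.57 in WT hearts. The calls of Pgls and Calr3 were lost when single hearts were left out (limma adjusted p = 0.0878 to 0.16 for Pgls, whichever heart it was, and 0.0637 to 0.122 for Calr3, unless it was WT heart 2), and those of the other 5 were kept without each heart. The part of the chromosomal surroundings in the difference of Klf2 was not tested.

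**Figure D3:**
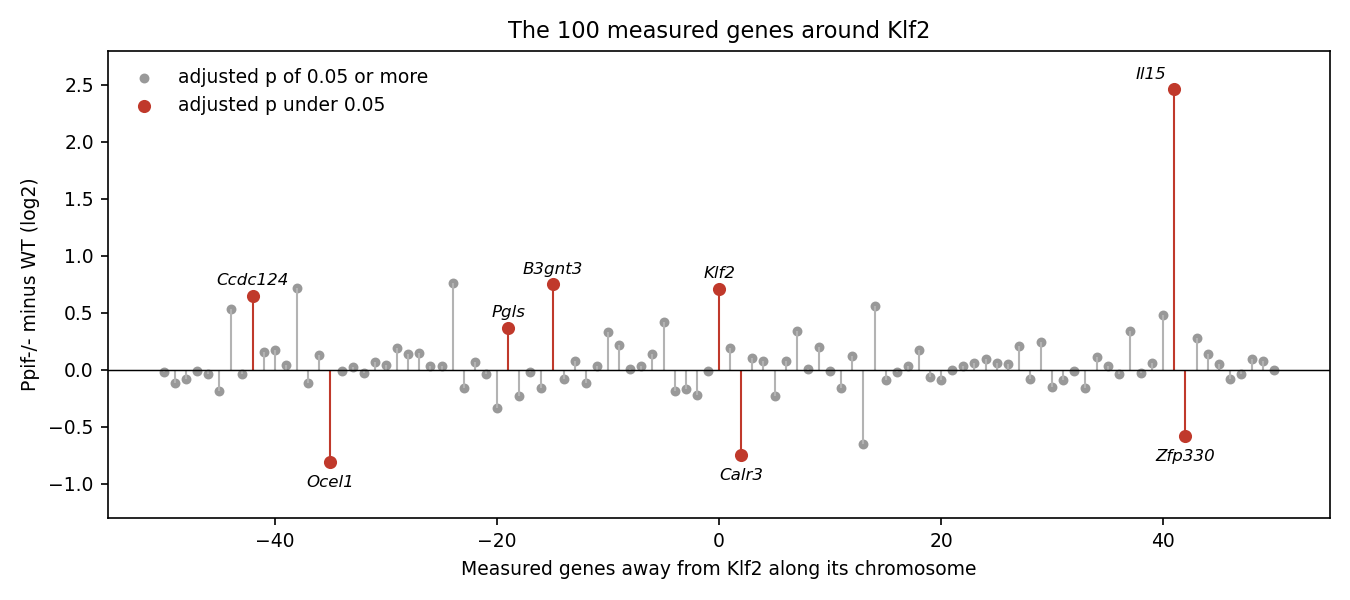
Difference between Ppif-/- and WT hearts (vertical axis, log2) for Klf2 and the 50 measured genes on each side of it, in their order along chromosome 8 (horizontal axis, in genes). Klf2 and 7 of its 100 neighbours have a limma adjusted p under 0.05 (red, named), and these neighbours lie in both directions, from -0.81 to 2.46.

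The other 9 members had 0 or 1 called gene and 2 to 7 genes at an unadjusted limma p under 0.05 among the 20 measured genes around them. The shares over all measured genes were 1.14% and 13.1%. The called neighbours, which were looked up after the values were seen, were all higher in Ppif-/- hearts. For Klf6 on chromosome 13 it was Pfkp, a phosphofructokinase gene (1.30, limma adjusted p = 0.000615), and 3 of 20 had an unadjusted p under 0.05. For Klf11 on chromosome 12 it was Mboat2 (1.54, limma adjusted p = 0.00061), with 7 of 20 at an unadjusted p under 0.05. For Klf4 on chromosome 4 it was Tmem245 (0.49) and for Klf9 on chromosome 19 the channel gene Trpm3 (0.46), with 2 of 20 at an unadjusted limma p under 0.05 around each. Tmem245 lost its call without any heart but WT heart 2 (limma adjusted p = 0.0556 to 0.0887), and Trpm3 whichever heart was left out (0.0825 to 0.132). Around Klf5, which lies on chromosome 14, and around Klf15, 0 of 20 were called in limma, with 3 and 2 at an unadjusted p under 0.05.

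Of 19 measured genes known as endothelial targets of KLF2 and KLF4, 1 was called in limma, with a median difference of 0.08. At an unadjusted limma p under 0.05 there were 3 higher, Adamts1, S1pr1 (0.25) and Ccl2 (0.50), and 0 lower. Over all measured genes 1.14% were called and 13.1% had an unadjusted limma p under 0.05, in either direction. S1pr1 and Ccl2 are named after their values were seen. The list was not divided into genes that the factors raise or lower, so its direction is not a measure of their activity. The called gene was Adamts1, a secreted protease, at 9.88 ± 0.11 in Ppif-/- and 8.81 ± 0.29 in WT hearts (mean ± SD, n = 3 each), a difference of 1.07 ± 0.14 (SE; limma adjusted p = 0.0141). That call was lost without Ppif-/- heart 2 or 3 or WT heart 1 (limma adjusted p = 0.0525, 0.078 and 0.0648). The classic targets were not called and were chosen after their values were seen: the endothelial nitric oxide synthase Nos3 differed by 0.16, thrombomodulin (Thbd) by -0.26 and the adhesion molecule Vcam1 by 0.25. Averaged over the 19 genes, the level was 8.45 to 8.52 in Ppif-/- hearts and 8.37 to 8.38 in WT hearts. This mean difference of 0.10 includes Adamts1 (1.07) and Ccl2 (0.50), the largest differences of the 19. Some of the 19 also stand in the list of endothelial markers.

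Klf2 is enriched in endothelial cells, so their markers are given beside it. Of 12 endothelial markers, 0 were called in limma, and at an unadjusted p under 0.05 there were 2 higher and 1 lower. Their mean level overlapped, at 9.78 to 9.90 in Ppif-/- hearts and 9.82 to 9.86 in WT hearts. The marker with the smallest p was Egfl7, at 0.22. Among 11 markers of smooth muscle cells and pericytes, 1 was called lower, the actin-binding protein Tagln (-0.51 ± 0.08), and the mean level was 8.80 to 8.88 against 8.95 to 9.06. At an unadjusted limma p under 0.05, 3 were lower, Myh11 (-0.53), Tagln and Cnn1 (-0.48), and 2 higher, Rgs5 (0.27) and Smtn (0.25). Myh11, Cnn1, Rgs5 and Smtn are named after their values were seen. Among 10 fibroblast markers, 1 was called lower, Pdgfra (-0.44 ± 0.06), with mean levels of 9.49 to 9.66 against 9.36 to 9.61. At an unadjusted limma p under 0.05, 0 of them were higher and 2 lower. Among 10 macrophage and monocyte markers, 1 was called higher, Cd68 (0.56 ± 0.09), with mean levels of 8.01 to 8.18 against 8.08 to 8.09. At an unadjusted limma p under 0.05, 2 of them were higher and 2 lower. The lower ones were Ccr2 (-0.70) and Cd163 (-0.53), named after their values were seen. The calls of Tagln, Pdgfra and Cd68 were lost whichever heart was left out (limma adjusted p = 0.0537 to 0.145). In the lists of lymphocytes, neutrophils, red cells and platelets, adipocytes, mesothelial cells, skeletal muscle, nerve and cardiomyocytes, 0 were called in limma. At an unadjusted limma p under 0.05 there were 3 of 9 lymphocyte and 3 of 8 neutrophil markers, all lower. There were also 3 of 5 red cell and platelet and 3 of 7 mesothelial markers, 2 higher and 1 lower in each. For adipocytes, skeletal muscle and nerve it was 0 of 6, 0 of 9 and 0 of 7, and 1 of 10 cardiomyocyte markers was lower. Over all measured genes the share was 13.1%. Neutrophil markers averaged 4.55 to 4.76 in Ppif-/- and 4.75 to 5.05 in WT hearts. The part of these cell types in the differences of the Klf genes was not tested.

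Genes of heart metabolism known as KLF15 targets had slightly lower means in Ppif-/- hearts, while Klf15 itself overlapped between the genotypes. Of 26 measured, 21 had a lower mean and 12 had every Ppif-/- heart below every WT heart, which 11.1% of all measured genes showed. The median difference was -0.06, however, and 0 were called lower in limma, where 1.14% of all measured genes were called in either direction. At an unadjusted p under 0.05, 4 were lower and 2 higher, beside 13.1% of all measured genes. The 1 called gene was higher, the branched-chain aminotransferase Bcat2, at 11.32 to 11.42 in Ppif-/- and 10.27 to 10.36 in WT hearts (1.05 ± 0.07, limma adjusted p = 0.000425). The largest difference of the list was that of Pdk4, which encodes an inhibitory kinase of the pyruvate dehydrogenase complex. Pdk4 lay at 11.56, 11.49 and 11.18 in Ppif-/- and 12.19, 13.19 and 12.45 in WT hearts. The groups stood 0.62 apart, and the difference of -1.20 ± 0.24 was not called (limma adjusted p = 0.0709). Prodh, which starts the breakdown of proline, was at -0.65 ± 0.12 (limma adjusted p = 0.0544), and Kcnip2, the potassium channel subunit through which KLF15 is known to affect cardiac rhythm, at -0.11. Pdk4, Prodh and Kcnip2 were chosen after their values were seen.

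Targets of the glucocorticoid receptor gave no single direction, beside Klf9, Klf13 and Klf15, which were not called. Of 21 measured, 3 were called higher and 0 lower, beside 1.14% of all measured genes called in either direction. At an unadjusted limma p under 0.05 there were 7 higher and 3 lower, beside 13.1% of all measured genes. The median difference was -0.05. The called genes were the feedback inhibitor Errfi1 (1.42 ± 0.13), the phosphatase Dusp1 (0.95 ± 0.10) and Per1 (1.07 ± 0.14), of which Dusp1 and Per1 also stand in the lists of early and clock genes. Pdk4 also stands in this list, with its difference of -1.20. Fkbp5, which encodes a co-chaperone of the receptor and was chosen after its values were seen, lay at 8.14, 7.68 and 8.47 in Ppif-/- hearts. In WT hearts it lay at 8.29, 9.96 and 8.05 (SD 1.04), with WT heart 2 apart from the rest. It differed by -0.67, with a 95% interval of -1.75 to 0.40. The list averaged 8.17 to 8.50 in Ppif-/- and 8.13 to 8.73 in WT hearts, with WT heart 2 the highest of all 6.

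Of 16 measured genes of the TGF beta axis beside Klf10 and Klf11, 1 was called in limma, Pttg1 (3.22 ± 0.12), which encodes securin. The median was 0.05, with 2 higher and 1 lower at an unadjusted p under 0.05. Over all measured genes the shares were 1.14% called and 13.1% at an unadjusted limma p under 0.05.

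Immediate early genes are induced within minutes of a stimulus, and Klf2, Klf4, Klf6 and Klf10 are often counted among them. Of 29 measured, 8 were called higher and 0 lower, beside 1.14% of all measured genes called in either direction. The gene lists were chosen with earlier results of these data known. The average of the early gene list was 7.87 to 8.12 in Ppif-/- hearts and 7.32 to 7.36 in WT hearts. Egr1 was at 8.47 to 8.69 in Ppif-/- and 5.93 to 6.28 in WT hearts (2.48 ± 0.10), beside 0.71 for Klf2. Nr4a1 differed by 2.15 ± 0.10 and Egr2 by 2.48 ± 0.15. Klf10 was at -0.14 and Klf4 at 0.21 in the same hearts. Ppif-/- heart 1 was the highest of its genotype for the list average, for Klf2 and for Klf6, but the lowest for Klf4. The Ppif-/- values of Klf2 spanned only 9.27 to 9.34 (SD 0.04), so the order of these hearts is not read further.

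Among 17 measured genes of the circadian clock, 6 were called higher and 1 lower, beside the same 1.14% of all measured genes. The output gene Dbp differed by 1.57 ± 0.13 and the repressor gene Bhlhe40 by 0.77 ± 0.07, while the Klf members known as clock outputs, Klf9, Klf10 and Klf15, were at 0.09, -0.14 and -0.02. Per1 and Bhlhe41 (0.65 ± 0.09) lost their calls when single hearts were left out, Per1 without WT heart 1 (limma adjusted p = 0.0511) and Bhlhe41 without any heart but Ppif-/- heart 2 (0.0507 to 0.0841). The 1 lower call was that of Arntl, the gene for the clock activator BMAL1, at 6.30, 7.39 and 6.64 in Ppif-/- and 8.17, 8.22 and 8.18 in WT hearts, named after its values were seen. Its difference of -1.41 ± 0.24 (limma adjusted p = 0.0418) was not called without any heart but Ppif-/- heart 2 (0.0639 to 0.159). With the hour of collection not given, its part in these differences and in that of Klf2 was not tested.

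**Figure D4:**
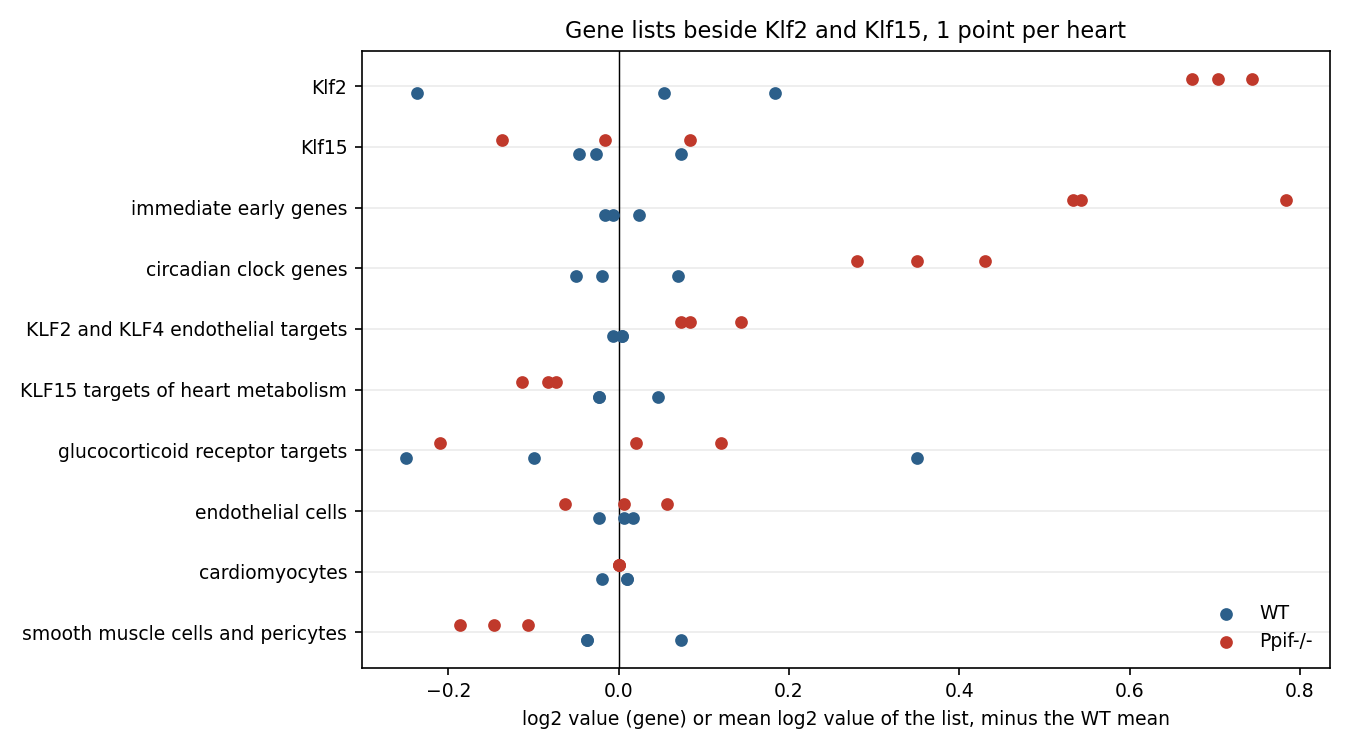
Klf2 and Klf15 in single hearts, and the mean log2 level of 8 gene lists in the same hearts, each set against its WT mean (horizontal axis, log2; 3 WT hearts in blue, 3 Ppif-/- hearts in red, some points coincide). The Ppif-/- hearts lie above the WT hearts for Klf2 and the immediate early, clock and KLF2 and KLF4 target lists. They lie below the WT hearts for the list means of KLF15 targets and of smooth muscle cell and pericyte markers, whose single genes lie in both directions. They overlap with the WT hearts for Klf15, glucocorticoid receptor targets and endothelial and cardiomyocyte markers.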

How the data were processed

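The deposited log2 values are expression per probe set, 1 array per heart, made by the authors with RMA (background correction, normalisation between arrays, summary of probes) per the submitters' processing notes. The software behind it is not given in the sources used here. At low signal the method shrinks differences. Values ran from 1.91 to 14.63, with 0 missing and 0 identical array pairs. With no scan dates, batches were not examined. Gene names came from the platform's annotation, brought up to date through Entrez identifiers in a gene table of GRCm38.p6 (21698 of 21789 with 1 symbol matched). The 23410 with a symbol were fitted with limma 3.58.1 in R 4.3.3 (lmFit, eBayes, 2-sided, no covariates). Where a gene had several probe sets, lists and neighbours used the one with the highest mean over all arrays. The procedure was tested on simulated arrays.

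The members and gene lists were chosen with earlier results of these data known. Genes were named by a rule: all members, Ppif, in each list up to 4 called genes or the 1 with the smallest p, and the 3 genes nearest in profile to the 2 members with the smallest p. Genes outside it are marked as chosen after the fact. Promoter windows are RefSeq's, GRCm38.p6. The replicate numbers did not pair the hearts. Alternatives were a replicate block, leaving out probe sets whose mean was under 6.06, testing the whole table, 1 probe set for each gene, added quantile normalisation, median centring, a variance trend, robust eBayes, array weights, and leaving out each heart.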

Additional observations from a re-analysis of the deposited data

How the results depend on the processing

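The count of called Klf genes was 1 (Klf2). It was 0 with the replicate number as a block (Klf2 0.71, limma adjusted p = 0.0653) and 0 when the whole table was tested (0.71, limma adjusted p = 0.0986). It was 2, with Klf6 added, when low values were left out and with a variance trend, and 0 to 1 when single hearts were left out, with Klf2 at 0.59 to 0.80. Over all probe sets the count of 254 became 160 with the replicate block, 404 without low values, 131 over the whole table, 453 with a variance trend, 386 with array weights and 131 to 171 without single hearts. Hearts of the same number correlated in their deviations at -0.077, -0.061 and 0.118, so the numbers are not taken to pair them. Of the 10 members, 8 kept their sign under all 15 alternatives. Klf5 was at -0.04 to 0.24 and Klf15 at -0.08 to 0.04 without single hearts, with the sign turned without WT heart 2 for Klf5 and without Ppif-/- heart 1 (0.04) or WT heart 3 (0.02) for Klf15. Of 29 called genes named in the text beside the members, 17 kept their call under every alternative. Testing the whole table ended the calls of Adamts1, Per1, Bhlhe41, Pdgfra, Tagln, Cd68, Sik1, Pgls, Calr3, Tmem245, Trpm3 and Arntl (limma adjusted p = 0.0624 to 0.141), the replicate block those of Pdgfra, Tagln, Cd68, Sik1, Pgls, Tmem245 and Trpm3 (0.0664 to 0.136), median centring that of Pgls (0.0588), and array weights that of Arntl (0.0542). With 3 arrays per genotype, a change within the printed intervals could not be resolved.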
